A study of Mus musculus with 4 samples.

Results

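The genes described here build or restrain bone mineral. They are 10 of the 55228 genes in the deposited count table, taken by name: the SIBLING proteins (small integrin-binding ligand, N-linked glycoproteins) Spp1, Ibsp, Dmp1 and Mepe, the phosphate and pyrophosphate enzymes Alpl, Enpp1, Phospho1 and Smpd3, and the regulators Phex and Ifitm5. Total RNA of cells from the rib cartilage of E17.5 embryos (strain C57BL/6) was sequenced. There were 2 libraries of Trim28 knockout (Trim28 KO) embryos and 2 of wild-type (WT) embryos. TRIM28 is a corepressor recruited to DNA by zinc finger proteins, and the labels name neither the allele nor a Cre driver. They also do not say whether libraries of 1 genotype are from different embryos. The Trim28 KO libraries differ in sex: Trim28 KO 1 had 0.978 CPM of the X inactivation transcript Xist and 114 CPM of the Y-linked gene Ddx3y, and Trim28 KO 2 had 358 and 0.602 CPM, so they are not repeats of 1 embryo. Both WT libraries resembled Trim28 KO 1 (Xist at 0.850 and 0.808 CPM, Ddx3y at 100.4 and 112 CPM), and for WT the spread between libraries may be technical.

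Bone mineral forms where the phosphate released around matrix vesicles outweighs pyrophosphate, which blocks crystal growth. ENPP1 makes pyrophosphate outside the cell and the alkaline phosphatase encoded by Alpl removes it, while PHOSPHO1 and the sphingomyelinase encoded by Smpd3 supply phosphate inside the vesicles. SIBLING proteins are acidic, phosphorylated matrix proteins of bone and dentin that bind mineral and integrins, and in embryonic ribs they mark late hypertrophic cartilage and the bone that replaces it.

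The 4 SIBLING genes lie within 270.3 kb of chromosome 5 on GRCm38 (the assembly also called mm10), together with the dentin gene Dspp. All are on the plus strand, in the order Dspp, Dmp1 (chr5:104202613-104214102), Ibsp (chr5:104299171-104311469), Mepe (chr5:104325329-104338611) and Spp1 (chr5:104435118-104441050). The other genes are spread over the genome, with Alpl on chr4:137741733-137796384, Ifitm5 on chr7:140948958-140950291, Smpd3 on chr8:106252548-106337988, Enpp1 on chr10:24637914-24712159 and Phex on chrX:157162075-157415312 (all minus strand), and Phospho1 on chr11:95824499-95832140 (plus strand). Their promoter windows are shown because these neighbours moved together, and that of Phospho1 because it moved the other way. Each runs from 250 bases before to 50 bases after a transcription start, in RefSeq's table on GRCm38.p6, and 9 of the 10 genes had 12 such windows in it. Capitals mark the core bound by RUNX factors, here only as TGTGGT or its reverse complement ACCACA. They also mark the CCAAT box or its reverse complement ATTGG.

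Dmp1, upstream start, chr5:104197325-104197624, plus strand: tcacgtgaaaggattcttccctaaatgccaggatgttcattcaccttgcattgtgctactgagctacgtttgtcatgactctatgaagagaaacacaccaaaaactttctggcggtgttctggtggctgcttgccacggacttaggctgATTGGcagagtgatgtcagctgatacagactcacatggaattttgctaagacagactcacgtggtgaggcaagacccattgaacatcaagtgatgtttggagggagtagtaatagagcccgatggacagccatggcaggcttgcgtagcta

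Dmp1, downstream start, chr5:104202367-104202666, plus strand: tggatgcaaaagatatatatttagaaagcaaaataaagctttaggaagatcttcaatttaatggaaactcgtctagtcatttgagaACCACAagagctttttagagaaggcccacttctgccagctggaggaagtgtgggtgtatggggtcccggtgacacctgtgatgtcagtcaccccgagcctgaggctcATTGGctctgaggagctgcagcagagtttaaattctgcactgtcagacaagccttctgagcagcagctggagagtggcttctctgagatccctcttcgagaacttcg

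Ibsp, chr5:104299037-104299336, plus strand: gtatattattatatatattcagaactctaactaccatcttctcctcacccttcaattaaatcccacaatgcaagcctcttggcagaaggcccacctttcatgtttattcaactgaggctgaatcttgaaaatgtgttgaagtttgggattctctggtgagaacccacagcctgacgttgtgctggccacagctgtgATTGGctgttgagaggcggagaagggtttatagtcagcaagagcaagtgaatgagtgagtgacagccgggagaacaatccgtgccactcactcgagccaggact

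Mepe, chr5:104325079-104325378, plus strand: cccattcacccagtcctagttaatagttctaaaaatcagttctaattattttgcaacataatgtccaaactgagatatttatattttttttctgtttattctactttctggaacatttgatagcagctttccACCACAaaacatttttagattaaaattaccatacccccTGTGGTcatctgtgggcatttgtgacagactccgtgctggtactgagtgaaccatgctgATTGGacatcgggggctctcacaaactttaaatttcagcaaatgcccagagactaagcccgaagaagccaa

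Spp1, chr5:104434861-104435160, plus strand: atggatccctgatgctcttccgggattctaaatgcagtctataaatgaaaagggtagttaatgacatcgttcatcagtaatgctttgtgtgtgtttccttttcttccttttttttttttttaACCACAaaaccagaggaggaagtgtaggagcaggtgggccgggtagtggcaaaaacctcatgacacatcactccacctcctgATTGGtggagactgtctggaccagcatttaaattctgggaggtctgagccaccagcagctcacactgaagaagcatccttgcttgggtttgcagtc

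Phospho1, chr11:95824250-95824549, plus strand: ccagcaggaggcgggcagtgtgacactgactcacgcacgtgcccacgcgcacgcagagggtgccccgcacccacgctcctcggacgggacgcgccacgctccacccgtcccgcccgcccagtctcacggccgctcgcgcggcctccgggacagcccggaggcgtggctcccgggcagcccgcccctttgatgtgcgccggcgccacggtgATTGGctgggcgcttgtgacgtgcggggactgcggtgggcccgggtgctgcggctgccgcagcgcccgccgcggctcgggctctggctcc

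The RUNX core stood in 4 of the 12 windows, those of the downstream Dmp1 start, Mepe, Spp1 and Enpp1, and in 16.8% of all 32851 windows. Mepe held it at 2 places, with first bases at -118 and -80 counted from the start. Ibsp and the Phospho1 window held no TGTGGT or ACCACA, and other forms of the core were not searched for. The CCAAT box was searched for after the sequences had been seen. It was found in 6 of the 12 windows, against 37.4% of all windows. These 6 are the windows printed above. A second RefSeq window of Spp1, chr5:104435942-104436241, is not printed and held neither the RUNX core nor the CCAAT box. In each printed window the box read ATTGG on the gene's own strand, with first bases from -101 (upstream Dmp1 start) to -21 (Mepe). None of the marked letters overlapped between the RUNX core and the CCAAT box. The homeodomain core TAATTA stood in 2 windows (5.29% of all) and the AP-1 motif TGANTCA in 1 (7.81% of all), that of Phospho1. The Phospho1 window was 77.0% G and C with 42 CpG pairs, whereas the SIBLING windows, the second one of Spp1 included, ran from 36.7% to 47.7% with 3 to 7. The 2 windows of Alpl, which also fell, were 70.0% with 26 pairs and 54.3% with 4. Those of Ifitm5 and Phex, which fell too, were 57.7% with 8 and 38.7% with 4. The Enpp1 window was 61.7% with 22. Over all windows the medians were 52.7% and 7 pairs. A match here is a description of letters and was not tested for binding.

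Library totals ran from 18616896 to 20082123 counts. Levels are CPM, counts scaled to a common library total by the trimmed-mean method (TMM). A gene counts as called where edgeR's quasi-likelihood test, adjusted across 16639 genes, gave a p below 0.05. Trim28 stood at 51.1 and 54.5 CPM in Trim28 KO and at 225 and 186 CPM in WT, a fall of 3.89-fold that matched the labels of all 4 libraries. All 15 listed cartilage genes were detected in every library. Their summed level was 100479.9 and 128447 CPM in Trim28 KO and 138852 and 105701 CPM in WT, ranges that overlap. Most of it was Col2a1, at 58700 and 74388 CPM in Trim28 KO and 79631 and 55512 CPM in WT.

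All 10 genes had enough counts to be tested. In Trim28 KO 7 were called lower and 2 higher, where 8.77% of all tested genes were called lower and 8.64% higher. The 10 genes together took 0.132% and 0.147% of all counts in Trim28 KO, against 0.260% and 0.323% in WT. Their median log2 fold change was -1.52, beside -0.02 over all tested genes. The libraries of the genotypes did not overlap for any of the 10, including Enpp1, which was not called. Of all tested genes, 29.7% had both Trim28 KO libraries below both WT libraries and 28.3% had them above.

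All 4 SIBLING genes fell in Trim28 KO, with a median log2 fold change of -1.83. Ibsp encodes bone sialoprotein, which nucleates mineral crystals in collagen, and fell by about as much as Ifitm5, the fitted falls of both being larger than those of the other 8 genes. Their order turned when Trim28 KO 1 or WT 2 was left out. Without Trim28 KO 2 the fitted fall of Dmp1 (-2.41) was level with that of Ibsp (-2.40). In that setting the falls of Dmp1 and Alpl (-2.28) were larger than that of Ifitm5 (-2.23), and that of Mepe (-2.23) was level with it. Ibsp stood at 119.9 and 160.0 CPM in Trim28 KO and at 582 and 692 CPM in WT, a 4.55-fold fall (a log2 fold change of -2.19 with an SE of 0.22 from 2 libraries of each genotype, adjusted p = 1.75e-07 by edgeR). The genotypes lay much further apart than the libraries of either. Values after ± beside a log2 fold change are likewise its SE.

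Spp1 encodes osteopontin, which binds mineral and slows its growth and is also made by osteoclasts and macrophages. It was the most abundant of the 10, at 617 and 608 CPM in Trim28 KO and 1333 and 1650.4 CPM in WT (log2 fold change of -1.28 ± 0.22, adjusted p = 0.000221 by edgeR). The Trim28 KO libraries lay close together and the WT libraries differed 1.24-fold. Spp1 shares 309 of its 1648 exon bases with Gm42793, a GENCODE gene model on the same strand that also fell, and fragments in shared bases were not counted for either gene.

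Dmp1 encodes dentin matrix protein, which osteocytes secrete and which restrains the phosphate hormone FGF23. It stood at 25.4 and 54.6 CPM in Trim28 KO and at 133 and 138 CPM in WT (log2 fold change of -1.76 ± 0.33, adjusted p = 0.00859 by edgeR). The Trim28 KO libraries differed 2.15-fold, the widest gap within a genotype among the 10, while the WT libraries were nearly level. Without Trim28 KO 2 the log2 fold change was -2.41 and without Trim28 KO 1 it was -1.31.

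Mepe encodes a phosphoglycoprotein of osteocytes that releases peptides inhibiting mineral growth. It was barely detected, with 14 and 22 counts in Trim28 KO and 57 and 75 counts in WT (log2 fold change of -1.89 ± 0.39, adjusted p = 0.00137 by edgeR). In TMM-scaled CPM this was 0.721 and 1.10 in Trim28 KO and 3.03 and 3.79 in WT. Dspp, the dentin member of the same cluster, had 0 counts in all 4 libraries, where 3 counts in a library correspond to 0.151 to 0.159 CPM.

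**Figure D1:**
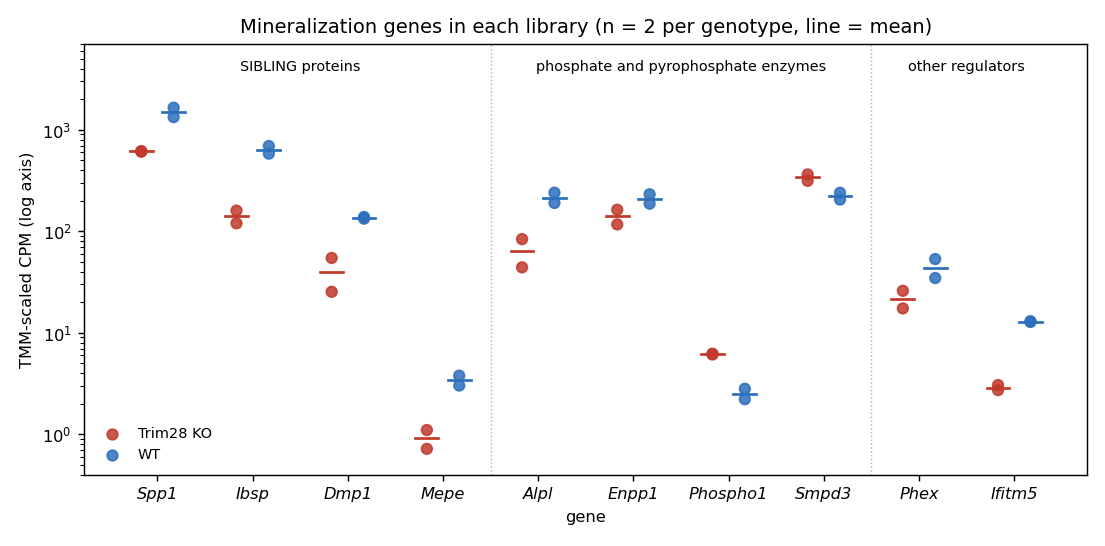
TMM-scaled CPM (log axis) of the 10 genes in each library, with Trim28 KO in red left of WT in blue, 1 point per library and a line at the mean of 2 libraries. The Trim28 KO points lie below the WT points for 8 genes and above them for Phospho1 and Smpd3.

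Most genes tested around the cluster were not called, as across the table, where 17.4% of tested genes were called. Within 500 kb of either end the table held 25 other annotated genes, of which 12 could be tested. Of the 12, 1 was called, Gm42793 (log2 fold change of -2.07), which overlaps the start of Spp1. The median log2 fold change of the 12 was -0.16. Sparcl1, a relative of the matrix protein SPARC that lies on the far side of Dspp, stood at 359.6 and 396 CPM in Trim28 KO and 409.6 and 426 CPM in WT (-0.14 ± 0.20, not called). Pkd2, the polycystin gene 24.3 kb beyond the start of Spp1, stood at 119.2 and 168 CPM in Trim28 KO and at 164 and 162 CPM in WT (-0.18 ± 0.21, not called).

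**Figure D2:**
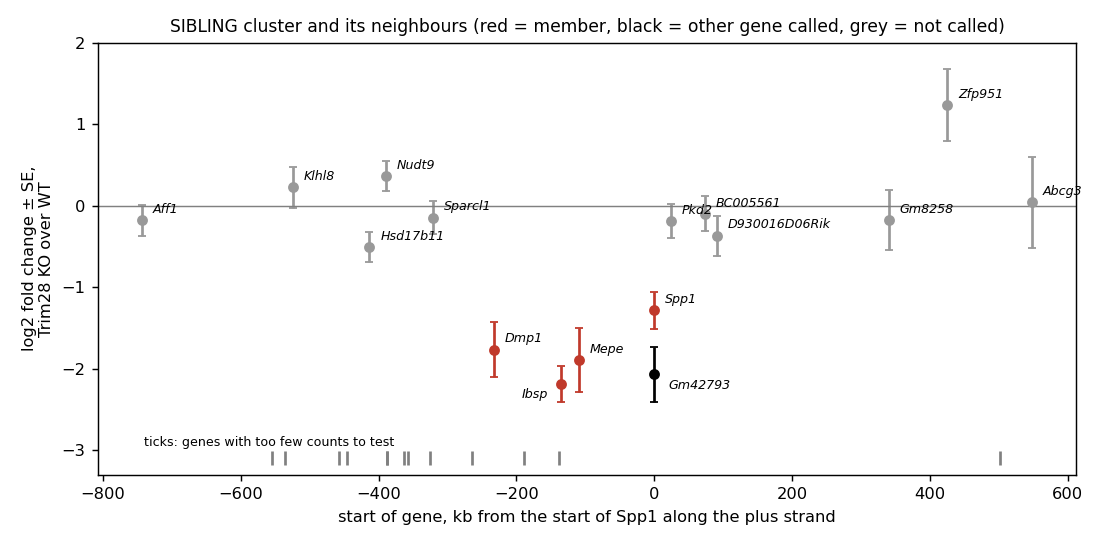
Log2 fold change (Trim28 KO over WT, ± SE) of the genes around the SIBLING cluster against the distance of their start from that of Spp1, in kb. The 4 SIBLING genes lie between -1.28 and -2.19, and of the other 12 tested genes only Gm42793 was called.

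The phosphate and pyrophosphate enzymes split. Alpl fell, Phospho1 and Smpd3 rose and Enpp1 did not pass the test. Alpl, the tissue-nonspecific alkaline phosphatase whose loss causes hypophosphatasia, stood at 44.2 and 83.8 CPM in Trim28 KO and at 240.2 and 190.3 CPM in WT (log2 fold change of -1.75 ± 0.28, adjusted p = 0.000802 by edgeR). Its Trim28 KO libraries differed 1.90-fold, in the same order as those of Dmp1, and both lay well below WT.

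Enpp1 makes pyrophosphate from ATP, the substrate that Alpl removes. It stood at 117 and 163 CPM in Trim28 KO and at 187 and 232 CPM in WT, a log2 fold change of -0.58 ± 0.21 that was not called (adjusted p = 0.0622 by edgeR). Of 15 other settings, 4 called Enpp1 lower, with an adjusted p from 0.0309 to 0.0496.

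Smpd3 encodes neutral sphingomyelinase, which frees phosphocholine from membrane lipid and whose loss in mice (the fragilitas ossium mutation) leaves the skeleton undermineralized. It stood at 315 and 363 CPM in Trim28 KO and 239.7 and 205 CPM in WT (log2 fold change of 0.61 ± 0.20, adjusted p = 0.0424 by edgeR). The genotypes did not overlap, but the call was near the threshold. It was lost without Trim28 KO 1 (adjusted p = 0.0883), Trim28 KO 2 (0.214) or WT 2 (0.183), and with upper-quartile factors (0.0528), and the direction held in all 15 settings.

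Phospho1 encodes the phosphatase that acts on phosphocholine and phosphoethanolamine in matrix vesicles. It had 121 and 122 counts in Trim28 KO and 53 and 44 counts in WT (log2 fold change of 1.29 ± 0.29, adjusted p = 0.00285 by edgeR). The gene lies inside the span of Zfp652 and opposite Abi3. In GENCODE release M21, 1818 of its 2029 exon bases are shared with exons of these genes, so its counts come from fragments that touched only the remaining 211 bases, and strand was not used. Zfp652 (-0.38) and Abi3 (0.32) were not called. The value for Phospho1 is therefore uncertain.

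Both regulators fell. Phex, the endopeptidase that cleaves mineral-inhibiting SIBLING peptides and whose loss causes X-linked hypophosphatemia, stood at 17.4 and 25.9 CPM in Trim28 KO and at 34.7 and 53.3 CPM in WT (log2 fold change of -1.02 ± 0.24, adjusted p = 0.00722 by edgeR). The genotypes did not overlap, but the WT libraries differed by more than the nearest libraries of the 2 genotypes. Phex lies on the X chromosome, and Trim28 KO 2 is the library with high Xist and low Ddx3y. The part of sex in its value was not tested. Without Trim28 KO 2 the fall was called (-1.33, adjusted p = 0.00869), and without Trim28 KO 1 it was not (-0.75, adjusted p = 0.128).

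Ifitm5, a membrane protein gene (also called Bril) largely restricted to osteoblasts, stood at 2.73 and 3.06 CPM in Trim28 KO and at 12.80 and 13.03 CPM in WT (log2 fold change of -2.15 ± 0.25, adjusted p = 9.06e-07 by edgeR). Libraries of the same genotype were close, and the fall differed from that of Ibsp by less than its SE. Of its relatives beside it on chromosome 7, looked up after its value was seen, Ifitm2 was lower (-0.66 ± 0.20) and Ifitm1 (-0.26 ± 0.40) and Ifitm3 (0.36 ± 0.20) were not called. These 3 are close copies of each other, so their counts are uncertain. Ifitm10, looked up with them but farther along the chromosome (chr7:142325837-142373753), was higher (1.61 ± 0.23, adjusted p = 1.67e-05 by edgeR). In release M21, 227 of the 765 exon bases of Ifitm5 are shared with the model Gm45717, which had 0 counts.

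**Figure D3:**
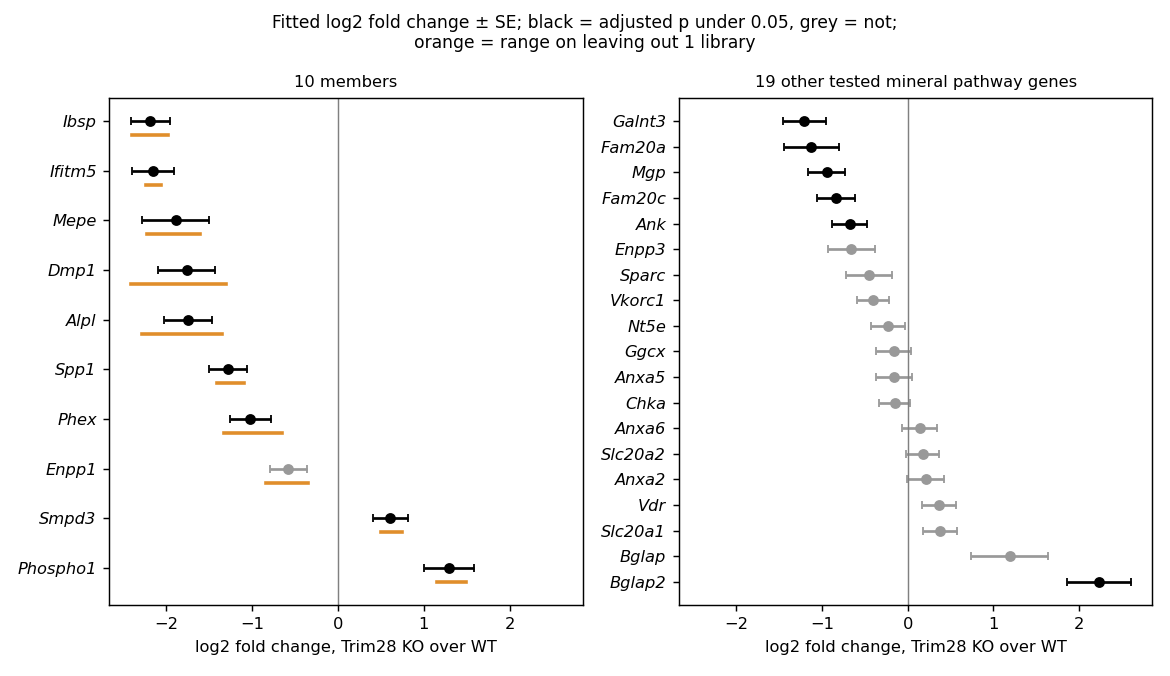
Fitted log2 fold change (Trim28 KO over WT, ± SE) of the 10 genes (left) and of 19 other tested mineral pathway genes (right). Orange shows the range on leaving out 1 library and is drawn for the 10 genes only. Of the 10, 7 are called lower and 2 higher, and the orange ranges of none cross 0; of the 19, 5 are called lower and 1 higher.

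Levels between genes were compared as CPM per kb of the exon bases that no other gene shares, a length chosen after the values were seen, and Phospho1 was left out for its few unshared bases. In Trim28 KO the order by mean was Spp1 (457), Smpd3 (68.0), Ibsp (67.7), Alpl (15.9), Dmp1 (14.5), Enpp1 (13.7), Ifitm5 (5.38), Phex (3.45) and Mepe (0.542). The library ranges overlapped between Smpd3 and Ibsp and among Alpl, Dmp1 and Enpp1. In WT the order was Spp1 (1114), Ibsp (308), Alpl (53.4), Dmp1 (49.2), Smpd3 (44.6), Ifitm5 (24.0), Enpp1 (20.4), Phex (6.995) and Mepe (2.03), and the ranges of Alpl overlapped those of Dmp1 and Smpd3. Smpd3 thus stood level with Ibsp per kb in Trim28 KO and well below it in WT. Over all exon bases Ifitm5 stood at 3.57 and 4.001 CPM per kb in Trim28 KO, where it overlapped Phex, and at 16.7 and 17.03 in WT, below Enpp1.

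Within the SIBLING transcripts the share of Spp1 was higher and that of Ibsp lower in both Trim28 KO libraries. On counts per unshared exon length, Spp1 made up 87.2% and 82.3% of the 4 in Trim28 KO, against 75.0% and 76.1% in WT. Ibsp made up 10.98% and 14.0% in Trim28 KO, against 21.2% and 20.7% in WT. Dmp1 made up 1.74% and 3.58% in Trim28 KO and 3.63% and 3.09% in WT, which overlap, and Mepe made up 0.0812% and 0.119% in Trim28 KO and 0.136% and 0.139% in WT.

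Ratios of raw counts within a library do not depend on scaling. Alpl over Enpp1, the enzyme that removes pyrophosphate over the enzyme that makes it, was 0.378 and 0.513 in Trim28 KO and 1.28 and 0.821 in WT, 2.33-fold lower in Trim28 KO. Smpd3 over Alpl was 7.12 and 4.34 in Trim28 KO and 0.998 and 1.08 in WT, and Spp1 over Ibsp was 5.14 and 3.80 in Trim28 KO and 2.29 and 2.39 in WT. None of these 3 ratios overlapped between the genotypes. With 2 libraries against 2 an exact two-sided permutation test cannot give a p below 0.333, the value each of the 3 had. Ibsp over Dmp1 was 4.72 and 2.93 in Trim28 KO and 4.37 and 4.995 in WT, which overlap. How often ratios of other gene pairs overlap across the table was not counted.

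Sp7 encodes osterix, a transcription factor of osteoblasts and late chondrocytes, and served as a yardstick picked after the values were known. Sp7 itself fell, from 83.0 and 75.9 CPM in WT to 25.0 and 38.6 CPM in Trim28 KO (-1.32 ± 0.21, adjusted p = 9.11e-05 by edgeR). A ratio to Sp7 is thus taken against a gene that fell, and an overlapping ratio does not mean an unchanged gene. Ibsp over Sp7 was 4.79 and 4.15 in Trim28 KO and 7.01 and 9.12 in WT. Alpl over Sp7 was 1.77 and 2.17 in Trim28 KO and 2.89 and 2.51 in WT, and Dmp1 over Sp7 was 1.01 and 1.42 in Trim28 KO and 1.61 and 1.83 in WT. Mepe over Sp7 was 0.0288 and 0.0286 in Trim28 KO and 0.0365 and 0.0499 in WT. Ifitm5 over Sp7 was 0.109 and 0.0793 in Trim28 KO and 0.154 and 0.172 in WT. All 5 of these ratios were lower in Trim28 KO, with no overlap between the genotypes. They share 1 denominator, and the exact two-sided permutation test gave each a p of 0.333, the lowest it can give. Of all tested genes, 58% had CPM levels that did not overlap between the genotypes. That share is of single genes, and none was counted for ratios. Spp1 over Sp7 was 24.6 and 15.8 in Trim28 KO and 16.1 and 21.8 in WT, and Phex over Sp7 was 0.695 and 0.672 in Trim28 KO and 0.418 and 0.703 in WT, so for these 2 genes the ratios overlapped.

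**Figure D4:**
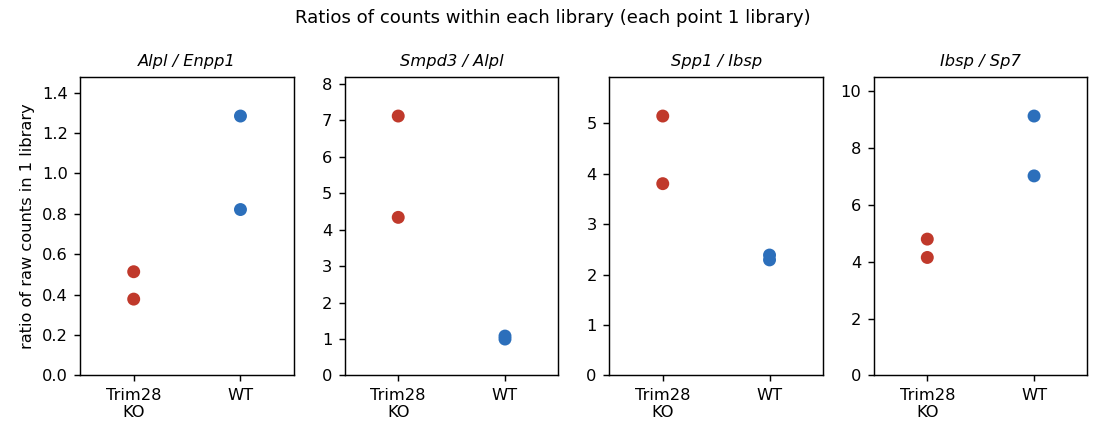
Ratios of raw counts within each library for 4 pairs of genes, with Trim28 KO left of WT and 1 point per library. Alpl over Enpp1 and Ibsp over Sp7 are lower in both Trim28 KO libraries, and Smpd3 over Alpl and Spp1 over Ibsp higher.

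A list of 26 other genes that handle phosphate, pyrophosphate or mineral-binding matrix held 19 that could be tested. Of these 5 fell, 1 rose and 13 did not pass the test, with a median log2 fold change of -0.16. Ank, the membrane protein that exports pyrophosphate or its precursor ATP, stood at 51.4 and 69.3 CPM in Trim28 KO and at 96.1 and 96.8 CPM in WT (-0.68 ± 0.20, adjusted p = 0.0206 by edgeR). Fam20c, the secretory kinase that phosphorylates SIBLING proteins, stood at 85.3 and 130.3 CPM in Trim28 KO and at 216 and 168 CPM in WT (-0.83 ± 0.22, adjusted p = 0.0113). Its partner Fam20a (-1.12 ± 0.32), Mgp, a matrix protein that blocks calcification (-0.94 ± 0.22), and Galnt3, which glycosylates FGF23 (-1.20 ± 0.25), also fell. All 5 calls were lost without Trim28 KO 1, which left 1 of 19 genes called.

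The phosphate importers Slc20a1 (0.37 ± 0.20) and Slc20a2 (0.18 ± 0.19) and the ectonucleotidase gene Nt5e (-0.23 ± 0.20) were not called. The gene that rose was Bglap2, 1 of the osteocalcin genes, at 7.003 and 4.87 CPM in Trim28 KO and 0.743 and 1.77 CPM in WT (2.23 ± 0.37, adjusted p = 0.000228 by edgeR). It is nearly identical to Bglap (1.19 ± 0.45, not called), so the value of each is uncertain. Fgf23, which DMP1 and PHEX restrain in bone, was near the floor in every library and could not be tested.

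Markers of several cell types moved with these genes. Of 13 osteoblast markers 7 fell and 1 rose, with a median log2 fold change of -1.22, and their summed level was 17645 and 23898 CPM in Trim28 KO and 56804 and 36274 CPM in WT. Of 10 markers of hypertrophic chondrocytes, the cells that enlarge before cartilage is replaced, 6 fell and none rose, and their summed level was 2604 and 3482 CPM in Trim28 KO and 5602 and 5928 CPM in WT. Most of the osteoblast sum came from the collagen genes Col1a1 (called lower) and Col1a2 (not called). Col1a1 stood at 8258 and 11921 CPM in Trim28 KO and at 37380 and 21087 CPM in WT. For Col1a2 the values were 8558 and 11147 CPM in Trim28 KO and 18278 and 14144 CPM in WT. Most of the hypertrophic sum was Col10a1, at 1740 and 2426 CPM in Trim28 KO and 3971 and 4256 CPM in WT. Runx2 (called lower) and Pth1r (not called) are on both lists. Of 5 osteocyte markers 3 fell and none rose. Of 15 cartilage markers 1 fell and none rose, with a median of -0.13. In bulk RNA, fewer cells of a type and less RNA per cell cannot be told apart.

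Markers of 2 other sources of Spp1 moved in opposite directions. Of 11 tested osteoclast markers 10 fell and none rose, and the summed level of the list was 290.3 and 309.8 CPM in Trim28 KO and 1168 and 986 CPM in WT. Most of this sum was Mmp9 and Ctsk. Mmp9 stood at 43.3 and 58.5 CPM in Trim28 KO and at 684 and 516 CPM in WT. Ctsk changed less, at 173 and 158 CPM in Trim28 KO and 279 and 278 CPM in WT. Of 11 macrophage markers 8 rose and none fell, with a summed level of 486 and 288 CPM in Trim28 KO and 149.6 and 153 CPM in WT. Of the osteoclast list Calcr was at 0 in Trim28 KO 2, and no macrophage marker was at 0. Of the other lists, 6 of 7 tested erythroid markers and 5 of 8 tendon and fibroblast markers fell and none rose. Of 5 tested neutrophil markers 2 fell and none rose. The neutrophil list summed to only 1.44 and 0.853 CPM in Trim28 KO and to 3.29 and 24.5 CPM in WT, so its WT level rested mostly on WT 2. Among 10 muscle markers 1 fell and 1 rose, and the 8 endothelial markers had a median log2 fold change of -0.22. The part of these cells in the Spp1 value was not tested.

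**Figure D5:**
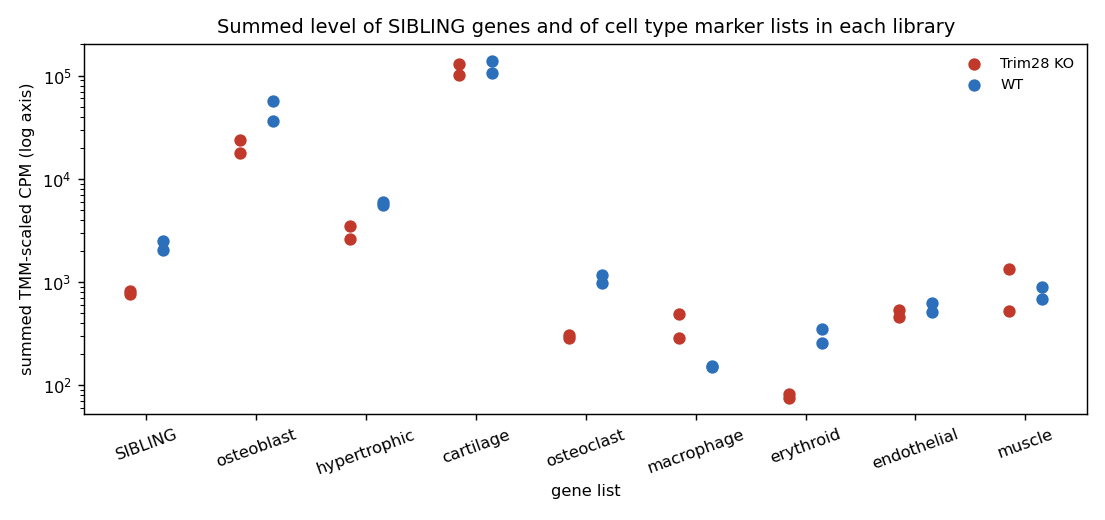
Summed TMM-scaled CPM (log axis) of the 4 SIBLING genes and of marker lists of 8 cell types, with Trim28 KO left of WT and 1 point per library. The SIBLING, osteoblast, hypertrophic, osteoclast and erythroid sums are lower in both Trim28 KO libraries and the macrophage sum higher, while the cartilage, endothelial and muscle sums overlap. The osteoblast sum is mostly Col1a1 and Col1a2 and the hypertrophic sum mostly Col10a1. The osteoclast sum is mostly Mmp9 and Ctsk and the cartilage sum mostly Col2a1.

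Genes with a pattern like that of Ibsp were ranked by the Euclidean distance of their centred log2 CPM over the 4 libraries. The ranking held 10761 other genes averaging 5 CPM or more. Genes named Gm with a number or with a name ending in Rik were left out. The nearest were Ecm2 (0.231), Steap1 (0.238), Ptprd (0.264), Mme (0.268) and Pantr1 (0.285), with fitted log2 fold changes from -2.15 to -2.46. Ifitm5 ranked 9, Dmp1 58, Alpl 78, Spp1 162, Phex 300, Enpp1 778 and Smpd3 9743. Mepe and Phospho1 averaged below 5 CPM and were not ranked. Distances over 4 libraries are a description and follow mostly from the difference between the genotypes.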

How the data were processed

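The authors deposited raw counts of fragments per gene, made, per the file headers, with featureCounts 1.6.4 over exons of GENCODE release M23 on mm10, grouped by gene name. The header shows no setting for strand, for multi-mapping or for overlap with several genes, so fragments shared between genes or copies were not counted. Which aligner was used is not given in the sources used here. The submitters' processing notes also name Subread 1.6.4 and edgeR. Genotypes came from the labels. Genes were kept by filterByExpr and scaled by TMM, and edgeR's robust quasi-likelihood test set Trim28 KO against WT (R 4.3.3, edgeR 4.0.16 with limma 3.58.1; DESeq2 1.42.0 as an alternative), with Benjamini-Hochberg adjustment over all tested genes. The SE is the log2 fold change divided by the square root of F. "Rose", "fell", "higher" and "lower" of a fitted gene refer to called genes.

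Gene positions were read from GENCODE release M21 (GRCm38), which held 98.8% of the tested names, and promoters from RefSeq (GRCm38.p6). Unshared exon bases were counted in the same release. The steps were tested on simulated data, where calls were false more often than the threshold states when each gene kept its own dispersion, so calls near the threshold, such as that of Smpd3, are less firm. The genes and lists were chosen with earlier results of these data known. The named genes were Trim28, the 10 genes, called or carrier genes of the pathway list, Dspp, Sparcl1, Pkd2 and the 5 nearest to Ibsp; Gm42793, Zfp652, Abi3, Xist, the Ifitm relatives, Sp7 and some pathway and marker genes were added with their values in view. Libraries of a genotype differed beyond counting noise (a chi-square per degree of freedom of 24.6 in Trim28 KO and 30.6 in WT). Each counted as 1 sample, but such a spread does not show that the WT libraries are from different embryos. If they are not, the SE and adjusted p values leave out variation between WT embryos. Counting floors cover counting error only. Alternatives were other scaling factors, filters and tests, a replicate block, marker genes left out and each library left out. Protein features were not analysed here.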

Additional observations from a re-analysis of the deposited data

How the results depend on the processing

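The direction of all 10 fold changes held under every alternative that gave a value (15 settings, and 14 for Mepe, which the stricter filter left out). Ibsp and Ifitm5 were called in all of them. When tested for a change above 2-fold, 389 genes were called in all, 2 of the 10 (Ibsp and Ifitm5) and 1 of the pathway list, and Spp1 (-1.28), Dmp1 (-1.76), Mepe (-1.89), Alpl (-1.75), Phospho1 (1.29), Smpd3 (0.61) and Phex (-1.02) were not. Smpd3 was not called with upper-quartile factors (0.58). Enpp1 was called with the stricter filter (-0.61) and with the replicate block (-0.59). On leaving out each library, 1274 to 2694 genes were called in all (2898 with all libraries), 7 to 10 of the 10, and 1 to 8 of the pathway list, with the fewest in all 3 without Trim28 KO 1. The log2 fold changes ran from 0.50 to 0.74 for Smpd3, from -1.33 to -0.65 for Phex and from -0.83 to -0.35 for Enpp1. Replicate numbers are shared between genotypes but not stated to pair embryos, and the deviations of same-numbered libraries correlated at -0.095. With the replicate block 2921 genes were called in all, and all 10 of the genes described. The cause of these changes was not tested. Depth limits Mepe, with 14 to 75 counts per library, and Phospho1, with 44 to 122.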
